A study of Homo sapiens with 52 samples.

Results

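The cytochrome P450 genes of families 2, 3 and 4 were followed as all rows of both count tables whose symbol is CYP, a 2, 3 or 4, 1 letter and a number. The rule found 33 genes among 62696 rows for the tumour lines and 61209 rows for THP-1, and it leaves out symbols of pseudogenes that end in P. Of these 33 genes, 14 averaged 0.5 CPM (read counts scaled to a common library size) or more in HepG2, 12 did so in Huh6 and 9 in THP-1. In all, 17 genes reached that level in at least 1 line, 7 reached it in all 3 lines and 16 stayed under it everywhere. The THP-1 mean includes libraries from co-culture with tumour cells, and 5 genes reached the level in THP-1 cultured alone. CYP4F3, CYP4F11 and CYP4F12 are among the 7 but averaged 0, 0 and 0.0399 CPM in THP-1 alone. HepG2 and Huh6 are established hepatoblastoma cell lines. They were kept for 48 h with the Wnt inhibitor PKF118-310 (0.2 or 0.3 uM in both lines, 0.4 uM in Huh6 only), with iMDK, an inhibitor of the growth factor midkine (5 or 10 uM), or with the empty vehicle. THP-1, a monocytic leukaemia line turned into macrophages with phorbol 12-myristate 13-acetate (80 ng/ml for 48 h, then 48 h of rest), was cultured for 24 h with HepG2 or Huh6 cells that had received iMDK for 24 h (5 or 10 uM) or were untreated, or was cultured alone, and was sorted before RNA isolation. Groups had 3 libraries each. The exception was PKF118-310 at 0.3 uM in HepG2, with 1 library because, per the design text, little RNA was obtained. The study asked how Wnt and midkine signalling shape the immune environment of this tumour.

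Families 2 and 3 hold many of the liver enzymes that oxidise drugs and other foreign compounds in the endoplasmic reticulum, with electrons passed on by the reductase POR. Family 4 enzymes mostly hydroxylate the far end of fatty acids, leukotrienes and vitamin K. In hepatocytes many of these genes depend on the liver factor HNF4A and are induced by the drug-sensing nuclear receptors PXR (NR1I2) and CAR (NR1I3), while cultured liver tumour lines are known to have lost much of the adult set.

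Total counts per library were 18284605 to 20043105 in HepG2, 18172462 to 19912509 in Huh6 and 12623973 to 16940245 in THP-1, and a gene with 3 reads therefore had 0.15 to 0.164 CPM in HepG2, 0.151 to 0.165 CPM in Huh6 and 0.177 to 0.238 CPM in THP-1. All 11 hepatocyte markers (ALB, AFP and others) were detected in every tumour library. Their summed level was 29600 to 32400 CPM in vehicle HepG2 cells and 11400 to 11500 CPM in vehicle Huh6 cells, where ALB itself averaged only 2.85 ± 0.714 CPM (SD, n = 3), against 6280 ± 268 CPM in HepG2. Of 10 macrophage markers 9 were detected in THP-1 cultured alone, summing to 15300 to 17300 CPM, and CD68 was at 0. The labels do not say if replicate libraries are independent cultures, so p-values measure the spread between libraries only.

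The genes with most signal were not the classical drug-metabolising enzymes. Per kilobase of exon, the highest means over all HepG2 libraries were those of CYP2W1 (43.3 CPM per kb), a P450 known from fetal tissue and tumours, CYP2S1 (16.2 CPM per kb), which is induced through the aryl hydrocarbon receptor, and CYP4F11 (10.6 CPM per kb), a vitamin K and fatty acid hydroxylase. In Huh6 the order was CYP4X1 (23.5 CPM per kb), an orphan enzyme described mainly in brain, then CYP2S1 (14.4 CPM per kb) and CYP4F11 (12.3 CPM per kb). CYP3A4, the main drug-metabolising P450 of adult liver, averaged 0.27 CPM in HepG2 and 0.0167 CPM in Huh6. CYP2A6, CYP2A7, CYP2D6, CYP2U1 and CYP4A22 had 0 counts in all 52 libraries. For CYP2D6, the codeine-activating enzyme, 34.4% of its 50-base exonic sequences also occur in another gene, nearly all of them in the pseudogene CYP2D7, which had reads in every group. Such sharing was also found for CYP2A6 (32.0%), CYP2A7 (24.3%) and CYP4A22 (38.8%), though most sequences of each of these genes were not shared. Whether their zeros and the CYP2D7 values depend on how the counting treated shared reads was not tested. CYP2U1 shared 0%, but 8.61% of its exonic bases overlap genes on the opposite strand. The strand option and annotation release of the counting are not given, and the cause of the CYP2U1 zeros was not tested. CYP3A7, the fetal liver enzyme, had 2 counts in all HepG2 libraries together, and the read-through row CYP3A7-CYP3A51P, which covers part of the same exons, had 34. Also under the level in every line were CYP2A13, CYP2C8, CYP2C18, CYP2C19, CYP2F1, CYP4A11, CYP4F8 and CYP4F22, none above 0.638 CPM in any library.

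The CYP4F genes lie close together on chromosome 19. In GENCODE 29 (GRCh38), CYP4F3 occupies chr19:15640897-15662825 and CYP4F12 chr19:15672757-15697174 on the plus strand, and CYP4F2 occupies chr19:15878023-15898120 and CYP4F11 chr19:15912367-15934867 on the minus strand. The 250 bases upstream of a RefSeq start (GRCh38.p14) are shown for the neighbours CYP4F11 (chr19:15934868-15935117, minus strand) and CYP4F2 (chr19:15898075-15898324, minus strand), because iMDK moved these 2 genes in opposite directions in Huh6.
CYP4F11: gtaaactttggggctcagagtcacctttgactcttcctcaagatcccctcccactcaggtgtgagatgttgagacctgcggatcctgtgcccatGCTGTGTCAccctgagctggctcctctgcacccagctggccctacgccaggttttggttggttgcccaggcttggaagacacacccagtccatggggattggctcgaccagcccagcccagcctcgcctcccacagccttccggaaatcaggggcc
CYP4F2: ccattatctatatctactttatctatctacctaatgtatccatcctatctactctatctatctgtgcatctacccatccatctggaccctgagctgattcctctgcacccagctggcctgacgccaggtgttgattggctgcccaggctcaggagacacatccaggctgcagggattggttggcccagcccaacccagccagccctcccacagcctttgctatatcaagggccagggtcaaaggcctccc
Capitals mark the letters TGACNNNGC, a core of the antioxidant response element, found on either strand. The match in CYP4F11 is the reverse complement of these letters and begins 156 bases before the start, and the CYP4F2 window holds none. Another CYP4F11 window (chr19:15934530-15934779), not shown, holds none either. This core occurs in 10.9% of 35116 upstream windows and in 4 of the 29 windows of the P450 genes. The other holders were CYP2B6, CYP4V2 and CYP4F8, a gene with 0 counts in both tumour lines. Aligned end to end, the CYP4F11 and CYP4F2 windows shown had 170 identical bases in 270 columns (63.0%). The CYP4F11 window not shown had 41.1% identity with that of CYP4F2. Upstream windows were found for 25 of the 33 genes, with 29 entries. The HNF4A core CAAAGTCCA was in 6 of these 29 windows and in 0.325% of all 35116, and its holders were CYP2A6, CYP2A7, CYP2A13, CYP2B6, CYP2C8 and CYP2R1. The TCF/LEF core ATCAAAG was in 3 of 29 and 2.26% of all, in CYP2B6 (where its letters overlap those of the HNF4A core), CYP2C19 and CYP3A43. The aryl hydrocarbon receptor core GCGTG was in 5 of 29 and 32.2% of all, and the sterol response element was in 0 of 29 and 0.0342% of all. A match describes letters in these windows only.

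With vehicle, 16 of 19 P450 genes tested differed between HepG2 and Huh6 (edgeR quasi-likelihood test, Benjamini-Hochberg adjusted p under 0.05), 5 higher and 11 lower in HepG2. Among all genes 79.5% differed (38.1% higher, 41.3% lower). With each line filtered alone, CYP2W1, CYP2J2 and CYP3A43 passed the low-count filter in HepG2 only. CYP4X1, CYP4B1, CYP4Z1, CYP4F22 and CYP2F1 passed it in Huh6 only. The calls of these genes were largely set by the filter, so the count cannot be read against the share of all genes. CYP2W1 had 151, 168 and 160 CPM in HepG2 and 0.55, 0.306 and 0.352 CPM in Huh6. The reverse held for CYP4X1, with 1, 0 and 0 reads in HepG2 and 1694, 1801 and 1873 reads in Huh6, or 1 read against 5368. Scaled to depth the Huh6 level of CYP4X1 was 5280 times that of HepG2, with an exact 95% counting interval of 947 to 209000. CYP2J2, an arachidonic acid epoxygenase, was also higher in HepG2 (log2 fold change 3.91 ± 0.337, adjusted p = 1.76e-15), as was CYP4V2, a fatty acid hydroxylase of the eye (1.47 ± 0.137, adjusted p = 2.92e-14). CYP2B6, which activates cyclophosphamide, was lower in HepG2 (-1.90 ± 0.177, adjusted p = 2.91e-14), and so was CYP3A5, the second adult CYP3A drug oxidase (-1.29 ± 0.0905, adjusted p = 5.61e-19). CYP4F2 and CYP4F12 started from closely similar levels, at 7.65 ± 1.56 and 17.1 ± 2.01 CPM in HepG2 against 7.22 ± 0.665 and 16.5 ± 0.647 CPM in Huh6, with log2 differences of 0.05 ± 0.131 and 0.02 ± 0.0886 that did not pass the test. CYP2R1, the vitamin D 25-hydroxylase (2.32 ± 0.38), and CYP3A43, with 85 reads in HepG2 and 6 in Huh6, were the other genes higher in HepG2. The lower ones included CYP2S1 (-0.78 ± 0.0626), CYP4F3 (-0.53 ± 0.0792), CYP4F11 (-0.27 ± 0.0647), and 4 genes with few reads, CYP4B1 (4 in HepG2, 85 in Huh6), CYP4Z1 (1 and 42), CYP4F22, a ceramide-forming skin enzyme (1 and 25), and CYP2F1 (2 and 23). CYP2D7 was lower by a smaller margin (-0.45 ± 0.175, adjusted p = 0.0167), and its call was lost without Huh6 replicate 1 (-0.41, adjusted p = 0.0525) or HepG2 replicate 1 (-0.42, 0.0527) or 3 (-0.31, 0.133). Each ± after a log2 fold change is a standard error, taken as the size of the change over the square root of its F statistic, with 3 libraries a group.

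Both inhibitors changed the P450 genes of both lines, and the direction depended on the gene and the line. In Huh6, 15 of the 33 genes had enough counts to be tested. PKF118-310 at 0.2 uM raised 0 and lowered 1 of them, beside 2.24% of all genes changed (1.04% higher, 1.2% lower). At 0.3 uM it raised 1 and lowered 4, beside 28.5% of all genes (15% higher, 13.5% lower), and at 0.4 uM it raised 2 and lowered 7, beside 56.8% (28.9% higher, 27.9% lower). iMDK raised 2 and lowered 3 at 5 uM, beside 35.6% (17.3% higher, 18.3% lower), and raised 2 and lowered 7 at 10 uM, beside 52.1% (26% higher, 26.1% lower). In HepG2, 14 genes were tested. PKF118-310 at 0.2 uM raised 4 and lowered 6, beside 72% of all genes (35.9% higher, 36.1% lower). iMDK raised 6 and lowered 1 at 5 uM, beside 51.6% (25.6% higher, 26% lower), and raised 6 and lowered 2 at 10 uM, beside 58.9% (29.9% higher, 29% lower). The share of P450 genes called was thus close to that of all genes in these comparisons. Their median log2 fold change was -0.59 at 0.4 uM PKF118-310 and -0.41 at 10 uM iMDK in Huh6, and -0.31 at 0.2 uM PKF118-310 and 0.29 at 10 uM iMDK in HepG2, beside medians over all genes between -0.01 and 0.02. All treatments of a line were set against the same 3 vehicle libraries.

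**Figure D1:**
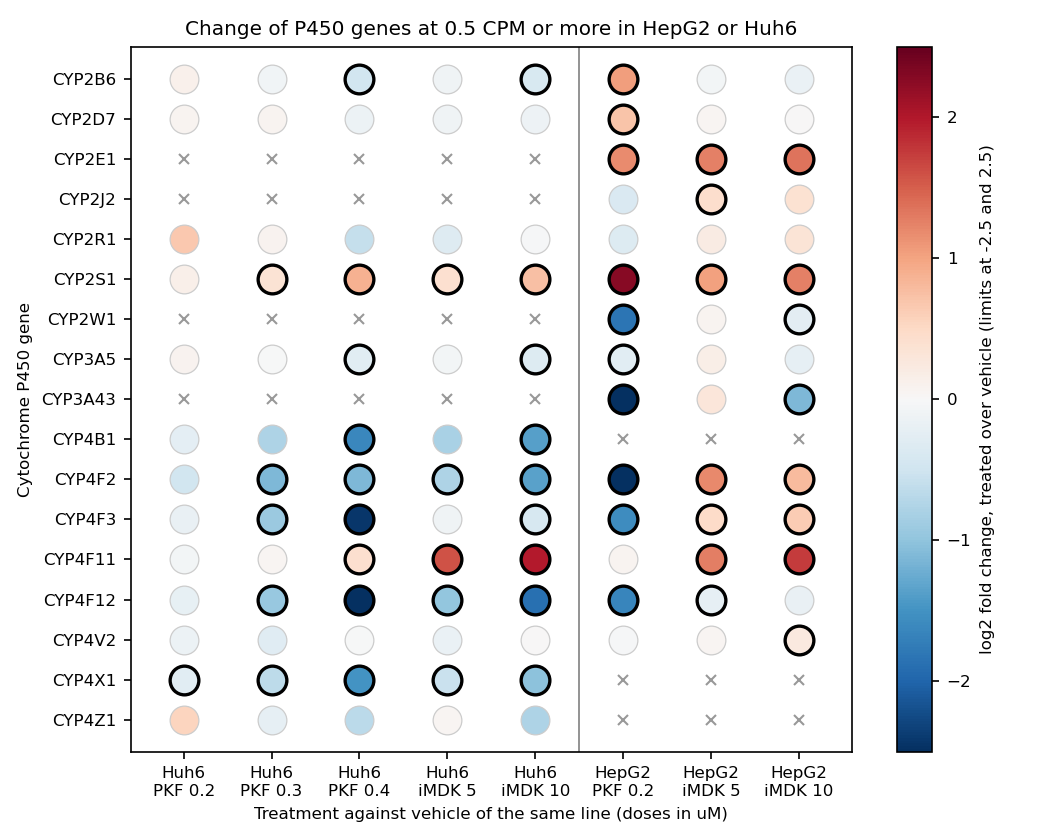
Log2 fold change of the 17 P450 genes at 0.5 CPM or more in HepG2 or Huh6 (rows), treated over vehicle, for each replicated treatment (columns, doses in uM). Colour gives the change (red higher, blue lower), a black ring marks an adjusted p under 0.05, a grey cross marks a gene that was not tested; CYP4F11 is red under iMDK in both lines, and CYP4F2 and CYP4F3 are blue in Huh6 but red in HepG2 under 10 uM iMDK.

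CYP4F11 showed the largest rise with iMDK among the P450 genes tested in Huh6 and HepG2. Huh6 cells had 27.4, 23.9 and 27.6 CPM with vehicle, 79.3, 82.2 and 75.8 CPM at 5 uM iMDK and 101, 107 and 104 CPM at 10 uM. The 3 groups did not overlap, and the log2 fold changes were 1.98 ± 0.0506 at 10 uM (3.95-fold, adjusted p = 1.24e-31) and 1.59 ± 0.0517 at 5 uM (adjusted p = 3.47e-27). HepG2 cells had 20.8, 21.4 and 24.7 CPM with vehicle, 54.2, 52.7 and 55.2 CPM at 5 uM iMDK and 77.6, 73.2 and 72.9 CPM at 10 uM. Here too the groups were apart, with changes of 1.74 ± 0.0582 (3.35-fold, adjusted p = 4.34e-24) and 1.28 ± 0.0601. The step between the doses, 10 over 5 uM, also passed the test in Huh6 (0.39 ± 0.0436) and in HepG2 (0.46 ± 0.0511). PKF118-310 moved CYP4F11 far less. It was at 35.1 ± 0.821 CPM in Huh6 at 0.4 uM (0.41 ± 0.0578, adjusted p = 4.88e-08) and at 23.3 ± 0.898 CPM in HepG2 at 0.2 uM, which did not pass the test (0.07 ± 0.067, adjusted p = 0.37) except with library size alone (0.16, adjusted p = 0.0323).

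CYP4F2, which hydroxylates vitamin K1 and arachidonic acid, moved with iMDK in opposite directions in the 2 lines. In Huh6 it had 2.41, 2.67 and 3.42 CPM at 10 uM iMDK, against 7.30, 6.53 and 7.85 CPM with vehicle, and in HepG2 it had 13.1, 13.1 and 13.7 CPM against 6.21, 9.31 and 7.43 CPM. All treated libraries were below vehicle in Huh6 and above it in HepG2. The log2 fold changes were -1.35 ± 0.157 in Huh6 (adjusted p = 7.95e-10) and 0.79 ± 0.115 in HepG2 (adjusted p = 2.46e-07), and their difference, HepG2 minus Huh6, was 2.17 ± 0.197 (adjusted p = 6.85e-14). At 5 uM the changes were -0.78 ± 0.146 in Huh6 and 1.2 ± 0.111 in HepG2, where the level of 17.6 ± 0.448 CPM was above that at 10 uM (10 over 5 uM, -0.41 ± 0.101, adjusted p = 0.0037). Under PKF118-310 CYP4F2 fell in both lines, to 1.14, 1.6 and 1.02 CPM in HepG2 at 0.2 uM (-2.61 ± 0.176, adjusted p = 1.28e-15) and to 3.89, 3.14 and 2.95 CPM in Huh6 at 0.4 uM (-1.12 ± 0.154, adjusted p = 3.54e-08). At the dose both lines received, 0.2 uM, the HepG2 change minus the Huh6 change was -2.11 ± 0.236 (adjusted p = 2.53e-11).

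CYP4F3, the leukotriene B4 hydroxylase, followed the same split more weakly. At 10 uM iMDK it had 20.3, 23.5 and 21.4 CPM in Huh6 against 27.8, 28.4 and 30.8 CPM with vehicle (-0.41 ± 0.0744, adjusted p = 7.54e-06). In HepG2 it had 34.2, 30.4 and 31 CPM at 10 uM against 19.5, 23.8 and 18.2 CPM with vehicle (0.63 ± 0.0773, adjusted p = 7.49e-09), and the groups were apart in each line. Of the exonic 50-base sequences of CYP4F2, 12.1% also occur in another gene, mainly CYP4F3, and the figure for CYP4F3 is 8.64%, so a small part of their reads could be exchanged. PKF118-310 lowered CYP4F3 with dose in Huh6, from a vehicle mean of 29 ± 1.58 CPM through 25.6 ± 0.479 at 0.2 uM and 15.3 ± 1.65 at 0.3 uM to 5.39 ± 0.904 CPM at 0.4 uM. Only the doses of 0.3 and 0.4 uM passed the test (-0.93 ± 0.0786 and -2.43 ± 0.0952), while 0.2 uM did not (-0.18 ± 0.0727, adjusted p = 0.262). In HepG2 0.2 uM was enough for a fall of CYP4F3 to 6.93 ± 0.57 CPM, against 20.5 ± 2.89 CPM with vehicle (-1.57 ± 0.0981, adjusted p = 1.48e-16).

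CYP4F12, which oxidises fatty acids and some antihistamines, lost most of its level in Huh6 under both inhibitors. It had 2.84, 2.71 and 3.06 CPM at 0.4 uM PKF118-310 and 4.31, 4.46 and 4.72 CPM at 10 uM iMDK, against 16.2, 16.1 and 17.3 CPM with vehicle. Neither treated group came near the vehicle libraries, and the changes were -2.52 ± 0.117 (17.4% of vehicle, adjusted p = 1.99e-22) and -1.88 ± 0.106 (27.2%, adjusted p = 3.1e-19). In HepG2 PKF118-310 at 0.2 uM lowered CYP4F12 to 5.48 ± 0.558 CPM, against 17.1 ± 2.01 CPM with vehicle (-1.64 ± 0.109, adjusted p = 7.43e-16). With 10 uM iMDK it was at 15.2 ± 1.36 CPM there (-0.18 ± 0.0924, adjusted p = 0.101), and it was called lower without iMDK replicate 1 (-0.25, adjusted p = 0.0346). At 5 uM the HepG2 change of -0.22 ± 0.0929 passed the test (adjusted p = 0.0445), and the call was lost with DESeq2 (adjusted p = 0.0727), with library size alone (0.138), with a stricter filter (0.0548), with only the compared groups (0.0521), and without vehicle replicate 2 (-0.12, adjusted p = 0.328), iMDK replicate 1 (-0.22, 0.0863) or iMDK replicate 3 (-0.18, 0.151). The difference between the lines at 10 uM iMDK, HepG2 minus Huh6, was 1.73 ± 0.143 (adjusted p = 3.33e-15).

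**Figure D2:**
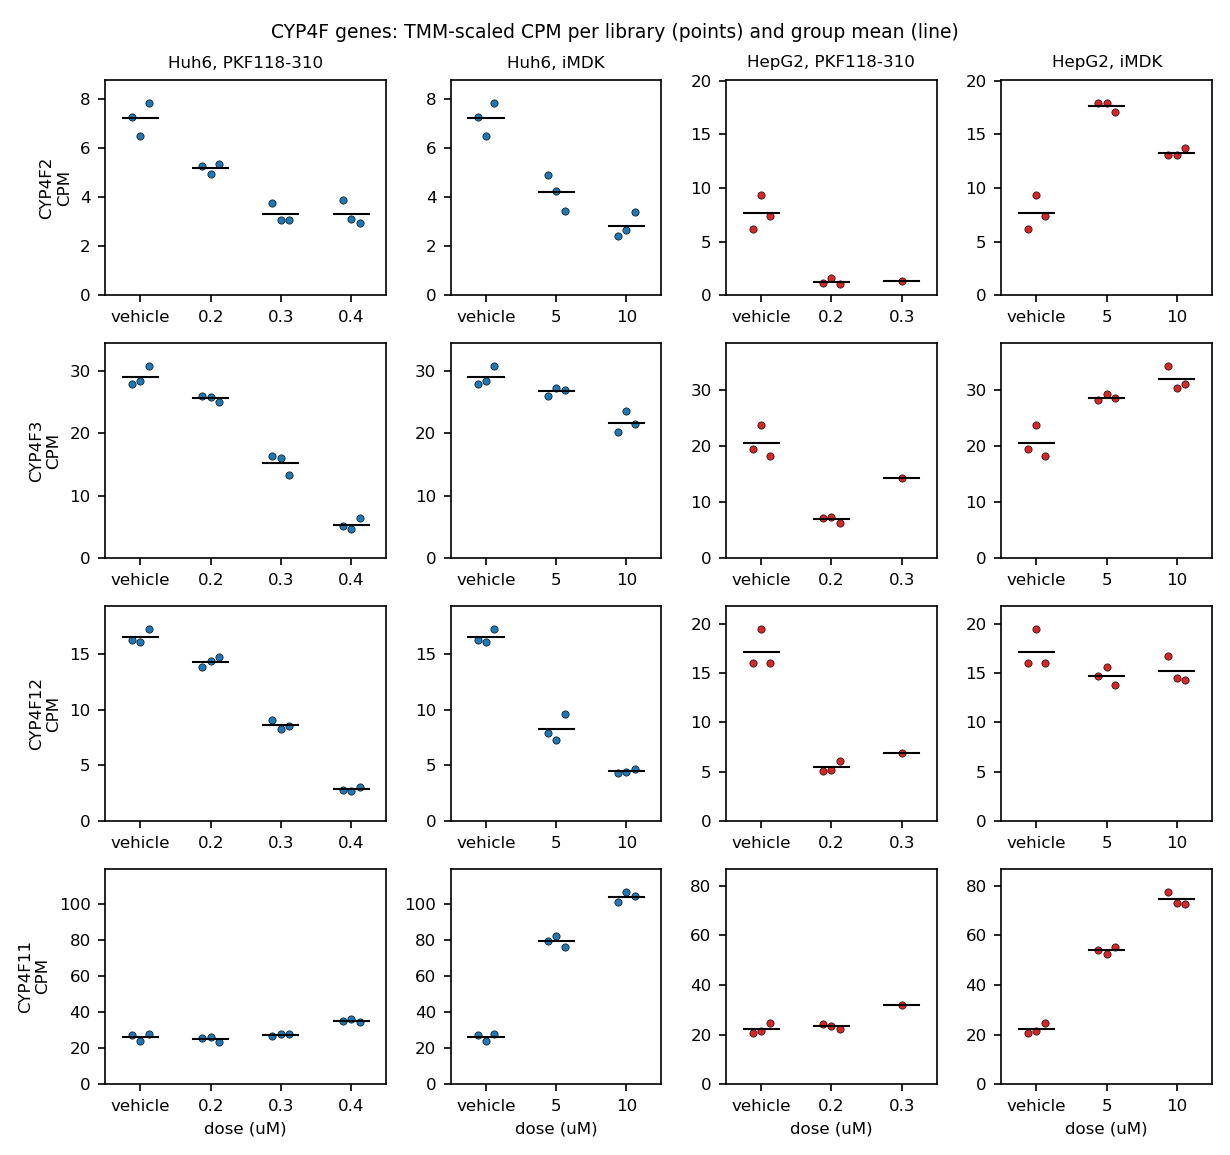
TMM-scaled CPM of CYP4F2, CYP4F3, CYP4F12 and CYP4F11 (rows) in each library (points) with group means (lines), by dose in uM and with vehicle at the low end, for Huh6 (blue, left) and HepG2 (red, right); HepG2 at 0.3 uM PKF118-310 is 1 library. CYP4F11 climbs with iMDK in both lines, and CYP4F2 at 10 uM iMDK averages 2.83 CPM in Huh6 and 13.3 CPM in HepG2, against vehicle means of 7.22 and 7.65 CPM.

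CYP2S1 rose with every replicated treatment except 0.2 uM PKF118-310 in Huh6. HepG2 cells had 88.8, 85.2 and 86.5 CPM at 0.2 uM PKF118-310, against 17.7, 17.5 and 18.7 CPM with vehicle, a gap many times the spread within a group. The log2 fold change was 2.28 ± 0.0554 (4.84-fold, adjusted p = 6.43e-29). In Huh6 the same dose gave 33.1 ± 0.524 CPM against 30 ± 1.14 CPM, which did not pass the test (0.14 ± 0.0571, adjusted p = 0.257), and the HepG2 change minus the Huh6 change was 2.15 ± 0.0797 (adjusted p = 1.85e-30). Higher doses raised CYP2S1 in Huh6 to 56.6, 55.8 and 54.1 CPM at 0.4 uM (0.89 ± 0.0536, adjusted p = 2.12e-18). At 10 uM iMDK it rose in HepG2 to 42.7 ± 0.624 CPM (1.25 ± 0.0596) and in Huh6 to 50.7 ± 2.61 CPM (0.76 ± 0.054). CYP1A1, the best-known target of the aryl hydrocarbon receptor and a gene of family 1, moved in the same direction as CYP2S1 in HepG2 but not in Huh6. It rose in HepG2 with PKF118-310 at 0.2 uM (2.74 ± 0.0719) and slightly with iMDK at 10 uM (0.25 ± 0.0901), but fell in Huh6 with PKF118-310 at 0.4 uM (-0.48 ± 0.0537) and with iMDK at 10 uM (-1.82 ± 0.0617). A role of this receptor in either gene's change was not tested.

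CYP4X1 and CYP2W1, the P450 genes with the highest level per kilobase in Huh6 and in HepG2, both fell. In Huh6, CYP4X1 fell with all 5 treatments and was the 1 gene called at 0.2 uM PKF118-310. Its level was 84.7, 91.8 and 94.3 CPM with vehicle, 73.3, 77.1 and 72.5 CPM at 0.2 uM, 58.6, 58.0 and 56.4 CPM at 0.3 uM and 34.6, 29.4 and 31.9 CPM at 0.4 uM, with no overlap between doses. The log2 fold changes were -0.28 ± 0.0446 (adjusted p = 4.67e-05), -0.65 ± 0.0461 and -1.50 ± 0.0504 (adjusted p = 2.3e-27). With iMDK CYP4X1 fell by 0.56 on the log2 scale at 5 uM and by 1.02 at 10 uM (adjusted p = 3.48e-22). CYP2W1 in HepG2 had 48.2, 42.0 and 45.1 CPM at 0.2 uM PKF118-310, against 151, 168 and 160 CPM with vehicle (-1.82 ± 0.0498, adjusted p = 2.34e-27). The groups were far apart, and the single library at 0.3 uM had 47.7 CPM. With iMDK CYP2W1 was at 167 ± 4.01 CPM at 5 uM, which passed the test with library size alone (0.12, adjusted p = 0.0199) but not otherwise (0.06 ± 0.0435, adjusted p = 0.225), and at 132 ± 8.78 CPM at 10 uM (-0.27 ± 0.0442, adjusted p = 2.14e-06).

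**Figure D3:**
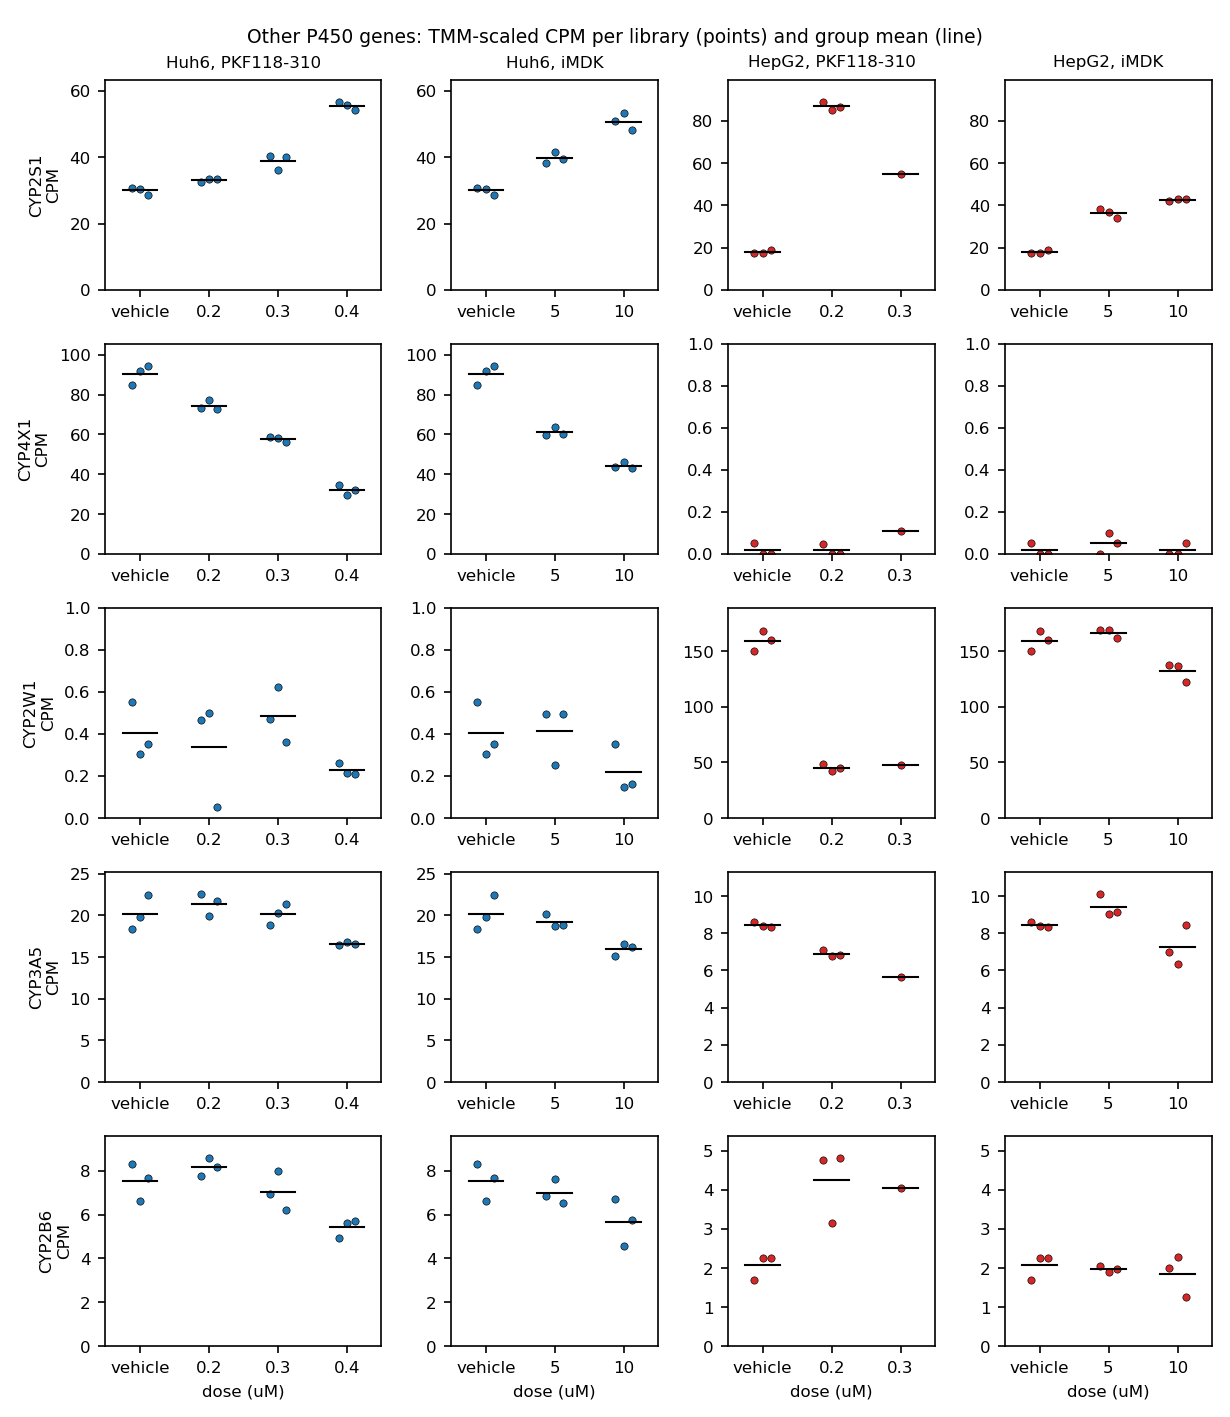
TMM-scaled CPM of CYP2S1, CYP4X1, CYP2W1, CYP3A5 and CYP2B6 (rows) in each library (points) with group means (lines), by dose in uM and with vehicle at the low end, for Huh6 (blue, left) and HepG2 (red, right). CYP4X1 in HepG2 and CYP2W1 in Huh6 are near 0 (axis to 1 CPM), and CYP2S1 in Huh6 averages 30 CPM with vehicle and 33.1, 38.8 and 55.5 CPM at 0.2, 0.3 and 0.4 uM PKF118-310.

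CYP3A5 and CYP2B6, the drug oxidases with a measurable level in both lines, changed little in Huh6. CYP3A5 had 16.4, 16.8 and 16.6 CPM at 0.4 uM PKF118-310 and 15.2, 16.6 and 16.2 CPM at 10 uM iMDK, against 18.3, 19.8 and 22.4 CPM with vehicle. Both treated groups lay below vehicle, with changes of -0.28 ± 0.0783 (adjusted p = 0.00206) and -0.34 ± 0.0784 (adjusted p = 0.000321). CYP2B6 was at 5.42 ± 0.42 CPM at 0.4 uM and 5.68 ± 1.08 CPM at 10 uM iMDK, against 7.52 ± 0.841 CPM with vehicle (-0.47 ± 0.133, adjusted p = 0.00236, and -0.41 ± 0.132, adjusted p = 0.00831). The iMDK libraries overlapped with vehicle, 6.72 CPM at their highest against 6.63 CPM at the lowest, and the CYP2B6 call with iMDK was lost without vehicle replicate 1 (-0.33, adjusted p = 0.062) or without iMDK replicate 2 (-0.27, adjusted p = 0.11).

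In HepG2, CYP2B6 went the other way with PKF118-310 at 0.2 uM. It had 4.77, 3.15 and 4.81 CPM, against 1.68, 2.25 and 2.27 CPM with vehicle (1.04 ± 0.217, adjusted p = 6.67e-05), and the groups did not overlap. CYP2B7P, a pseudogene that shares most of the 8.36% of CYP2B6 sequences found elsewhere, had 4 reads in all HepG2 libraries. CYP2D7 rose as well, to 5.77 ± 0.764 CPM against 3.51 ± 0.817 CPM (0.71 ± 0.174, adjusted p = 0.000496), while the 1 library at 0.3 uM had 1.99 CPM. HepG2 CYP3A5 was at 6.91 ± 0.178 CPM against 8.43 ± 0.134 CPM, a change of -0.29 ± 0.119 with an adjusted p of 0.03. That call was lost with DESeq2 (adjusted p = 0.057), with no filter on low counts (0.0519), with library size alone (0.14), and without vehicle replicate 1 (-0.28, 0.0658), PKF118-310 replicate 2 (-0.27, 0.0814) or replicate 3 (-0.26, 0.0841).

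CYP3A43 and CYP2E1 had few reads in HepG2. CYP3A43, a minor CYP3A enzyme, had 2, 0 and 1 reads in HepG2 at 0.2 uM PKF118-310, against 28, 34 and 23 reads with vehicle. Scaled to depth the treated level was 0.0346 of vehicle (exact 95% counting interval 0.00699 to 0.104, adjusted p = 2.46e-09). At 10 uM iMDK CYP3A43 had 22, 10 and 10 reads (-1.12 ± 0.343, adjusted p = 0.00547). CYP2E1, the ethanol oxidase, rose in HepG2 to 16, 22 and 24 reads at 0.2 uM PKF118-310, against 6, 11 and 8 reads with vehicle. It had 35, 15 and 15 reads at 5 uM iMDK and 21, 19 and 30 reads at 10 uM. Every treated library of CYP2E1 was above every vehicle library, with log2 fold changes of 1.18 ± 0.413, 1.26 ± 0.41 and 1.36 ± 0.405 (adjusted p = 0.0114, 0.00963 and 0.00414). Without vehicle replicate 1 the calls at 0.2 uM PKF118-310 and 5 uM iMDK were lost (0.97, adjusted p = 0.0557, and 1.06, adjusted p = 0.0507), as was that at 5 uM iMDK without iMDK replicate 1 (0.74, adjusted p = 0.185). Of the CYP2E1 exonic bases, 23.9% overlap genes on the opposite strand, and the strand setting of the counting is not given in the sources used here.

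CYP4B1, a lung enzyme that activates plant toxins, fell in Huh6 at 0.4 uM PKF118-310 to 14, 6 and 6 reads and at 10 uM iMDK to 14, 7 and 11 reads, against 30, 31 and 24 reads with vehicle (-1.63 ± 0.39, adjusted p = 0.000409, and -1.38 ± 0.375, adjusted p = 0.00191). CYP2J2 in HepG2 passed the test at 5 uM iMDK (5.76 ± 0.492 against 4.23 ± 0.777 CPM, 0.45 ± 0.166, adjusted p = 0.0226) and missed it at 10 uM (0.37 ± 0.167, adjusted p = 0.0537), where it passed with the replicate block (0.37, adjusted p = 0.0455), with library size alone (0.44, 0.0238), with a filter of 1 CPM in 3 libraries (0.38, 0.0459), with only the compared groups (0.38, 0.0456), and without vehicle replicate 3 (0.48, 0.0277) or iMDK replicate 1 (0.45, 0.034). Its call at 5 uM was lost without vehicle replicate 1 (0.31, adjusted p = 0.154), iMDK replicate 1 (0.40, 0.0791) or iMDK replicate 2 (0.43, 0.0561). CYP4V2 in HepG2 passed at 10 uM iMDK only (11.8 ± 0.439 against 9.94 ± 1.19 CPM, 0.25 ± 0.103, adjusted p = 0.0395), and this was lost with DESeq2 (0.0724), with no filter (0.103), and without vehicle replicate 1 (0.27, 0.0511) or 3 (0.15, 0.24) or iMDK replicate 2 (0.23, 0.0919) or 3 (0.23, 0.0926). With 0.2 uM PKF118-310 CYP2J2 was called lower only without vehicle replicate 1 (-0.52, adjusted p = 0.0136) or PKF118-310 replicate 2 (-0.57, 0.0109). With all libraries CYP2R1 passed no test against vehicle in either line, but without HepG2 vehicle replicate 1 it was called higher at 10 uM iMDK (0.63 ± 0.238, adjusted p = 0.0232). CYP4Z1, a mammary enzyme, passed no test against vehicle in Huh6. CYP3A4 was under the filter in HepG2 and was not tested, with 21 reads at 5 uM iMDK, 17 at 10 uM iMDK and 19 at 0.2 uM PKF118-310, against 8 with vehicle. The ratios, with exact 95% counting intervals, were 2.54 (1.08 to 6.64), 2.06 (0.842 to 5.51) and 2.33 (0.972 to 6.14), and the libraries at 5 uM, with 3, 7 and 11 reads, overlapped with those of vehicle, with 3, 0 and 5.

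The single HepG2 library at 0.3 uM PKF118-310 allowed no test, and 16.8% of all genes lay 2-fold or more from the vehicle mean in it. It had 54.6 CPM of CYP2S1, 14.3 CPM of CYP4F3, 6.92 CPM of CYP4F12, 1.33 CPM of CYP4F2 and 4.04 CPM of CYP2B6. Each of these values lay on the same side of the vehicle mean as the mean at 0.2 uM, whereas CYP2D7, at 1.99 CPM, lay on the other side.

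Tests of the response in HepG2 minus that in Huh6 called 5 P450 genes above and 5 below 0 of 19 for 0.2 uM PKF118-310, beside 53.6% of all genes (27.5% above, 26.1% below). CYP2F1 was among those above 0 (adjusted p = 0.00277), with 17 reads in HepG2 at 0.2 uM and 2 reads with vehicle, a ratio of 8.32 (exact 95% counting interval 1.98 to 74.3), and 12 and 23 reads in Huh6. It was under the filter when HepG2 was fitted alone. For 5 uM iMDK 5 were above and 1 below, beside 31.6% (15.1% above, 16.5% below), and for 10 uM iMDK 6 were above and 1 below, beside 40% (19.9% above, 20.1% below). Between doses in Huh6, 3 of 15 P450 genes were higher and 8 lower at 0.4 than at 0.2 uM PKF118-310, beside 54.6% of all genes (28.1% higher, 26.5% lower), and 2 were higher and 5 lower at 10 than at 5 uM iMDK, beside 24.9% (12.7% higher, 12.2% lower). In HepG2 2 of 14 were higher and 4 lower at 10 than at 5 uM iMDK, beside 15.1% (7.58% higher, 7.52% lower). The HepG2 genes higher at 10 than at 5 uM were CYP4F11 and CYP2S1, and those lower were CYP4F2, CYP2W1, CYP3A43 and CYP3A5. For CYP3A5 (-0.38, adjusted p = 0.0213) the call was lost without 5 uM replicate 1 (-0.32, adjusted p = 0.113) or 10 uM replicate 1 (-0.35, 0.0771) or 2 (-0.29, 0.147). In Huh6, CYP3A5 (-0.27, adjusted p = 0.00953) and CYP4F2 (-0.58, adjusted p = 0.00908) lost this call without 5 uM replicate 1 (-0.23, 0.0573, and -0.45, 0.0897) or 10 uM replicate 1 (-0.23, 0.063, and -0.47, 0.0697). The 2 genes called between the PKF118-310 doses in Huh6 but against vehicle at no dose were CYP2F1, an enzyme mainly of lung (1.36 ± 0.56, adjusted p = 0.0378), and CYP4Z1 (-1.24 ± 0.416, adjusted p = 0.0108), and CYP4Z1 lost its call without 0.4 uM replicate 1 (-1.04, 0.0591) or 3 (-1.05, 0.0611).

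Genes that regulate or supply the P450 enzymes were read at the highest replicated dose of each inhibitor, where 56.8% (Huh6, PKF118-310), 52.1% (Huh6, iMDK), 72% (HepG2, PKF118-310) and 58.9% (HepG2, iMDK) of all genes were called, split about evenly between higher and lower. The lists were not tested against these shares. Of 16 receptors and liver factors tested in Huh6, 13 fell and 2 rose at 0.4 uM PKF118-310, and 12 fell and 0 rose at 10 uM iMDK. In HepG2, 10 of 17 fell and 4 rose at 0.2 uM PKF118-310, and 11 fell and 3 rose at 10 uM iMDK. The list medians were -0.62 and -0.32 in Huh6 and -0.46 and -0.24 in HepG2, with PKF118-310 and iMDK in that order. HNF4A fell in all 4 of these comparisons, most in HepG2 with PKF118-310 (-0.99 ± 0.031, adjusted p = 1.63e-25) and least in HepG2 with iMDK (-0.29 ± 0.0302). NR1I2, the receptor PXR, fell in Huh6 with PKF118-310 (-0.82 ± 0.189) and with iMDK (-1.05 ± 0.193), and rose in HepG2 with both (0.97 ± 0.0669 and 0.32 ± 0.0709). NR1I3, the receptor CAR, fell in Huh6 at 0.4 uM (-0.97 ± 0.338, adjusted p = 0.013) and passed no test in the other 3. POR changed by no more than -0.25 ± 0.0301 (HepG2, PKF118-310), and CYB5A, the cytochrome b5 that aids many P450 reactions, fell in all 4, most in HepG2 with PKF118-310 (-1.42 ± 0.0458).

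Conjugating enzymes and other oxidising and hydrolysing enzymes gave more falls than rises at these highest doses, with the same shares of all genes called. The other lists did so only in part. Haem and electron donor genes had equal numbers of falls and rises with iMDK in Huh6, and drug transporters with iMDK in HepG2. P450 genes outside families 2 to 4 gave more rises than falls in HepG2. Among 20 conjugating enzymes tested, 14 fell and 2 rose in HepG2 with PKF118-310, among them the bile acid sulfotransferase SULT2A1 (-3.11 ± 0.0605) and the glucuronosyltransferase UGT2B10 (-2.95 ± 0.0803). With 10 uM iMDK 10 fell and 7 rose in HepG2 and 11 fell and 5 rose in Huh6, and with 0.4 uM PKF118-310 12 fell and 4 rose in Huh6. Other oxidising and hydrolysing enzymes gave 9 falls and 2 rises of 14 in Huh6 with PKF118-310, 6 and 5 of 14 in Huh6 with iMDK, 8 and 2 of 12 in HepG2 with PKF118-310 and 7 and 3 of 12 in HepG2 with iMDK. Low doses in Huh6 differed, with 7 falls and 7 rises of conjugating enzymes and 3 falls and 4 rises of the other enzymes at 5 uM iMDK, and 1 and 2, and 0 and 1, at 0.2 uM PKF118-310. NQO1, a quinone reductase and well-known target of the antioxidant response, rose in Huh6 with PKF118-310 (0.71 ± 0.0889) and iMDK (1.26 ± 0.084). Of 12 P450 genes outside families 2 to 4 tested in HepG2, 3 fell and 6 rose with PKF118-310, a share close to the 72% of all genes, and 1 fell and 4 rose with iMDK, a share below the 58.9% of all genes. In Huh6 5 fell and 1 rose of 13 with each inhibitor, again below the shares of all genes. Of the drug transporters, 5 fell and 3 rose of 11 in Huh6 with PKF118-310, 5 fell and 4 rose with iMDK, 7 fell and 5 rose of 13 in HepG2 with PKF118-310 and 6 fell and 6 rose with iMDK. Haem and electron donor genes gave 10 falls and 3 rises of 14 with PKF118-310 in each line, 5 and 5 with iMDK in Huh6 and 6 and 3 with iMDK in HepG2.

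**Figure D4:**
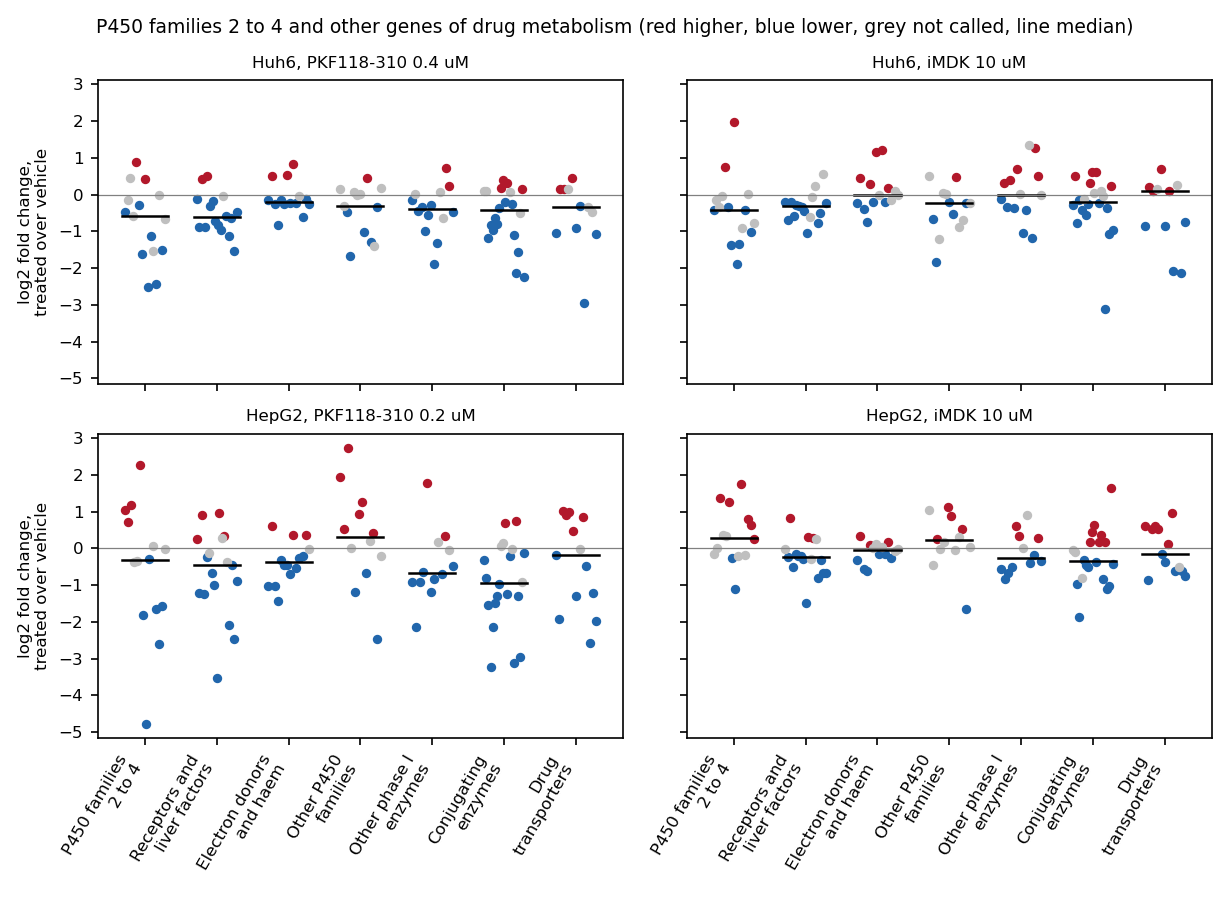
Log2 fold change, treated over vehicle, of every tested gene (points) of P450 families 2 to 4 and of 6 lists of related genes, in the highest replicated dose of each inhibitor and line. Red points are higher and blue points lower at an adjusted p under 0.05, grey points are not called, and lines are list medians; the median of conjugating enzymes in HepG2 with PKF118-310 is -0.94.

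The hepatocyte markers fell beside these genes. All 11 were called lower with PKF118-310 in Huh6 at 0.4 uM and in HepG2 at 0.2 uM and with 10 uM iMDK in Huh6, and 8 were lower and 3 higher with 10 uM iMDK in HepG2. Their summed level was 6300 to 7370 CPM at 0.4 uM PKF118-310 and 7600 to 7860 CPM at 10 uM iMDK in Huh6, against 11400 to 11500 CPM with vehicle. In HepG2 it was 6980 to 7680 CPM at 0.2 uM PKF118-310 and 21600 to 22000 CPM at 10 uM iMDK, against 29600 to 32400 CPM with vehicle. ALB fell by 1.58 and 1.21 on the log2 scale in Huh6 with these doses of PKF118-310 and iMDK and by 3.19 and 1.05 in HepG2. The part of this in the P450 changes was not tested. In bulk RNA, fewer cells of a kind and less RNA per cell cannot be told apart.

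In THP-1 cultured alone, 5 P450 genes averaged 0.5 CPM or more. They were CYP2S1, CYP2R1, CYP4V2, CYP3A5 and CYP2D7, led per library by CYP2S1 at 55.3, 47.9 and 51.0 CPM. CYP4F2, CYP4F3 and CYP4F11 had 0 reads in the 3 libraries of THP-1 alone. After co-culture with untreated HepG2, 5 of 12 P450 genes tested were higher and 1 lower than in THP-1 alone (21.6% of all genes changed, 12% higher and 9.68% lower). The 5 higher genes averaged 0.326 CPM or less in THP-1 alone and passed the low-count filter only through the HepG2 co-cultures. Their number was thus largely set by the filter and cannot be read against the share of all genes. CYP4F3 had 149, 91 and 84 reads against 0, 0 and 0, at least 112-fold higher when 3 counts are allowed over the group cultured alone. CYP4F11 had 38, 28 and 27 reads against 0, 0 and 0 (at least 32.3-fold higher), and CYP4F2 had 52, 25 and 4 against 0, 0 and 0 (at least 28.1-fold higher). CYP4F12 had 96, 78 and 71 reads against 0, 2 and 0, a ratio of 127 with an exact 95% counting interval of 34.9 to 1060. CYP2W1 had 192, 235 and 166 reads against 5, 2 and 9 (5.23 ± 0.491, adjusted p = 6.36e-08). The adjusted p was 4.08e-07 for CYP4F3, 7.67e-07 for CYP4F11, 0.000643 for CYP4F2 and 7.02e-07 for CYP4F12. CYP2S1 was lower, at 35.9, 36.4 and 39.1 CPM against 55.3, 47.9 and 51.0 CPM (-0.47 ± 0.121, adjusted p = 0.00723), with no overlap.

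Hepatocyte markers moved with these reads. All 11 were detected in the co-cultured THP-1 libraries, with a summed level of 2530 to 3090 CPM, against 7 detected and 56 to 71 CPM in THP-1 alone, where AFP, APOB, FGB and TTR were at 0. Set against vehicle HepG2, the median marker put the share of tumour RNA at 9.39 to 11.8% of a library, and single markers ranged from 0.857 to 18.3%. CYP2W1 stood at 6.74 to 9.72% of its HepG2 level and CYP4F11 at 8.09 to 10.9%, both inside the range of the markers. CYP4F3 stood at 46.5, 29.8 and 27.4% and CYP4F12 at 35.7, 30.4 and 27.5%, above the highest marker in all 3 libraries. CYP4F2 stood at 43.4, 21.9 and 3.49%, above the highest marker in 2 of 3. After the estimated tumour reads were taken off, CYP4F3 (adjusted p = 0.000329), CYP4F12 (1e-05) and CYP4F2 (0.00981) were still called higher, CYP2S1 was not called (-0.32, adjusted p = 0.0758), and CYP2W1 and CYP4F11 fell below the filter. This estimate rests on the median marker and on HepG2 cells cultured without macrophages, whose levels may differ from those in co-culture. The adjusted p-values leave out the spread between markers. As CYP4F2, CYP4F3 and CYP4F12 were at or near 0 in THP-1 alone, their calls show only that reads were left over. Which cells the remaining reads came from was not tested.

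THP-1 cells co-cultured with HepG2 that had received 10 uM iMDK had fewer of these reads than those with untreated HepG2. CYP4F3 had 35, 9 and 19 reads against 149, 91 and 84 (-2.16 ± 0.465, adjusted p = 0.0117), CYP4F12 had 23, 7 and 12 against 96, 78 and 71 (-2.34 ± 0.458, adjusted p = 0.00599), and CYP2W1 had 78, 31 and 67 against 192, 235 and 166 (-1.55 ± 0.363, adjusted p = 0.0176). These were the 3 calls of 12 (3.34% of all genes, 0.645% higher and 2.7% lower), and none of the 3 genes overlapped between the groups. All 3 passed the low-count filter only through the HepG2 co-cultures, so this count too cannot be read against the share of all genes. The estimated share of tumour RNA was 2.24 to 4.75% in these libraries, against 9.39 to 11.8%, and with the estimated tumour reads taken off CYP4F12 and CYP4F3 were still called lower (adjusted p = 0.00228 and 0.0201). These 2 adjusted p-values also leave out the spread between markers. The matched HepG2 cells had iMDK for 48 h, not for 24 h before co-culture. For CYP4F11 the same estimate gave 52.7, 24.1 and 34.3 reads at 10 uM, above the 13, 7 and 17 found. The source of the remaining CYP4F3 and CYP4F12 reads was not tested. CYP4F3 lost its call without untreated replicate 1 (-1.92, adjusted p = 0.0608), iMDK replicate 2 (-1.78, 0.0753) or iMDK replicate 3 (-2.17, 0.0546), and CYP2W1 without untreated replicate 2 (-1.41, 0.115) or iMDK replicate 2 (-1.23, 0.101), so that 1 call was left without iMDK replicate 2. With 5 uM iMDK 0 of 12 genes were called by edgeR (0.0903% of all genes, 0.0194% higher and 0.071% lower), 3 had an unadjusted p under 0.05 and DESeq2 called 0. With the replicate number as a block, which pairs the THP-1 libraries, CYP4F3 was called lower at 5 uM (68, 42 and 27 reads against 149, 91 and 84, -1.28, adjusted p = 0.018), as it was with no filter on low counts (-1.24, adjusted p = 0.0198).

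Co-culture with Huh6 gave no call among the P450 genes in the main edgeR fit. It was set against the same 3 libraries of THP-1 alone as the HepG2 co-culture. Between THP-1 with untreated Huh6 and THP-1 alone edgeR called 0 of 12 P450 genes (1.83% of all genes, 1.32% higher and 0.503% lower), 3 had an unadjusted p under 0.05 and DESeq2 called 1. CYP4F3 had 13, 2 and 2 reads against 0, 0 and 0, at least 6.22-fold higher, and was not called (edgeR adjusted p = 0.0752) but was called with the replicate block (0.00571), with no filter on low counts (0.000234) and by DESeq2 (0.00759). CYP4X1, the most abundant P450 gene of Huh6 per kilobase, had 13, 2 and 0 reads against 0, 0 and 6. CYP2S1 was at 39.1 to 44.8 CPM with untreated Huh6, against 47.9 to 55.3 CPM in THP-1 alone. Those groups did not overlap, as with HepG2, but CYP2S1 was not called here. The estimated share of tumour RNA was 0.443 to 2.12%, from 8 markers. Huh6 cells given 5 or 10 uM iMDK instead of no inhibitor gave 0 calls of 12 at either dose (0.0129 and 0.0581% of all genes), with 2 genes at an unadjusted p under 0.05 in each and 0 called by DESeq2.

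**Figure D5:**
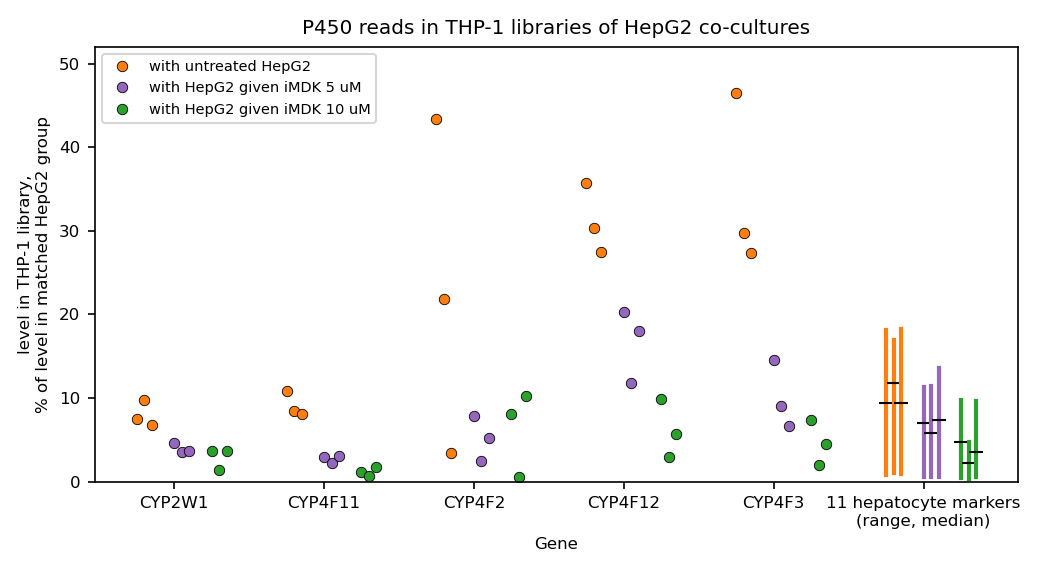
Level of 5 P450 genes in THP-1 libraries from HepG2 co-cultures as a percent of their level in the matched HepG2 group (points, 1 per library, after the level in THP-1 alone is taken off), beside the range (bars) and median (black ticks) of the 11 hepatocyte markers per library. With untreated HepG2, CYP4F3 and CYP4F12 lie at 27.4% or above in every library, and the highest marker at 18.3%.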

How the data were processed

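RNA was isolated with RNeasy kits and made into directional poly(A) libraries, per the labels' protocols. The authors deposited raw read counts per gene in 1 table for HepG2 and Huh6 and 1 for THP-1. STAR 2.7.3a, SAMtools 1.16.1, featureCounts, edgeR 3.36 and the build GRCh38 are named in the submitters' processing notes. For the version of featureCounts, its strand option and the annotation release, the entry is "not given in the sources used here". CPM values were computed here from the deposited counts with TMM-scaled library sizes.

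Tests used edgeR 4.0.16 (R 4.3.3) with filterByExpr, TMM, the quasi-likelihood F test and Benjamini-Hochberg adjustment over all genes tested (threshold 0.05), on 15029 genes for Huh6, 14111 for HepG2, 15500 for THP-1 and 16321 for both tumour lines together, which gave the differences between lines. The single HepG2 library at 0.3 uM PKF118-310 was scaled but not fitted. Shares of tumour RNA in THP-1 libraries came from hepatocyte markers at 100 CPM or more in the matched tumour group. Gene positions and exonic lengths came from GENCODE 29 and upstream windows from RefSeq (GRCh38.p14). The fits were tested on simulated data without pairing of libraries, for 1 comparison each in Huh6, HepG2 and THP-1. The spread between simulated libraries was set by hand to a fixed value, larger for THP-1, and was not estimated from these data. The shares recovered hold for that spread only. Of true changes of 0.5 on the log2 scale, 74% were recovered in Huh6, 70% in HepG2 and 16% in THP-1. Of true changes of 1, 84, 86 and 72% were recovered. The absence of a call in THP-1 is therefore weak evidence of no change. Intervals and the 3-count floor cover counting error only. No pair of replicates agreed within counting noise (chi-square per degree of freedom at least 1.79).

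Genes at 0.5 CPM or more in a line with a call were described per library, lower genes by range or where called, and of each related list up to 4 called genes with the largest changes, plus POR, NR1I2, NR1I3, HNF4A, CYP1A1 and ALB. The values of 1 gene are not reported here. The genes and lists were chosen with earlier results of these data known. Same-numbered THP-1 libraries deviated together (correlations 0.102 to 0.8 over 63 pairs), so the numbers pair these libraries. The main THP-1 tests leave out this pairing, and only the fits with a replicate block include it. Alternatives were RLE size factors, library size alone, no filter, a filter of 1 CPM in 3 libraries, DESeq2 1.42.0, a replicate block, only the compared groups, subtraction of tumour reads and leaving out each library.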

Additional observations from a re-analysis of the deposited data

Results flagged for a closer look

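The response to the same dose differed between the lines, by a test of the difference itself (HepG2 minus Huh6, log2 scale, edgeR quasi-likelihood test), for 22 combinations of dose and gene at 0.5 CPM or more in HepG2 or Huh6. For 0.2 uM PKF118-310 the differences were 2.56 for CYP2E1 (adjusted p = 0.00134), 2.15 for CYP2S1 (1.85e-30), 0.94 for CYP2B6 (0.000676), 0.67 for CYP2D7 (0.0143), -0.35 for CYP3A5 (0.0219), -1.37 for CYP4F3 (5.3e-14), -1.42 for CYP4F12 (5.17e-13), -1.55 for CYP2W1 (0.00846) and -2.11 for CYP4F2 (2.53e-11). CYP2E1 was under the filter when Huh6 was fitted alone, where it had 2, 7 and 2 reads at 0.2 uM PKF118-310, 4, 6 and 5 at 5 uM iMDK and 3, 3 and 7 at 10 uM iMDK, against 7, 14 and 8 with vehicle. The HepG2 changes alone were 1.18, 1.26 and 1.36, so that the rest of each CYP2E1 difference comes from these few Huh6 reads. CYP2W1 had at most 12 reads in a Huh6 library, and its call was lost without Huh6 PKF118-310 replicate 1 (-1.27, adjusted p = 0.0916) or 2 (-1.16, 0.139). The call of CYP3A5 was lost with library size alone (-0.27, adjusted p = 0.0818) and without Huh6 vehicle replicate 1 (-0.29, adjusted p = 0.071) or PKF118-310 replicate 1 (-0.32, 0.0531), and that of CYP2D7 without Huh6 PKF118-310 replicate 3 (0.52, 0.0717), HepG2 vehicle replicate 3 (0.52, 0.0719) or HepG2 PKF118-310 replicate 2 (0.54, 0.0665).

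For 5 uM iMDK the differences were 2.24 for CYP2E1 (adjusted p = 0.00648), 2 for CYP4F2 (2.7e-13), 0.79 for CYP4F12 (2.6e-06), 0.63 for CYP2S1 (7.98e-09), 0.61 for CYP4F3 (8.36e-06) and -0.29 for CYP4F11 (0.00381). The CYP2E1 call was lost without HepG2 iMDK replicate 1 (1.72, adjusted p = 0.0546). For 10 uM iMDK they were 3.14 for CYP4Z1 (0.0468), 2.5 for CYP2E1 (0.00196), 2.17 for CYP4F2 (6.85e-14), 1.73 for CYP4F12 (3.33e-15), 1.07 for CYP4F3 (4.74e-12), 0.52 for CYP2S1 (3.26e-07) and -0.21 for CYP4F11 (0.029). CYP4Z1 had 1 read in the 3 HepG2 vehicle libraries, and its call was lost without replicate 1 or 3 of Huh6 vehicle, Huh6 iMDK or HepG2 iMDK, or replicate 1 or 2 of HepG2 vehicle (adjusted p 0.057 to 0.203). It was also lost with no filter on low counts (3.1, adjusted p = 0.076), with the replicate block (3.12, 0.0501) and with only the groups compared (3.14, 0.052). The CYP4F11 call at 10 uM was lost without replicate 2 of Huh6 vehicle or Huh6 iMDK, replicate 3 of HepG2 vehicle, or replicate 2 or 3 of HepG2 iMDK (adjusted p 0.0554 to 0.207), and with library size alone (-0.17, 0.085).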

How the results depend on the processing

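Over 121 calls of single P450 genes at 0.5 CPM or more and the alternatives that could be computed, 1638 of 1709 repeats kept direction and call, 71 lost the call and 0 changed direction. With RLE size factors 121 of 121 calls were kept, with DESeq2 117 of 120, and over left-out libraries 802 of 858. With the replicate block 120 of 121 calls were kept, and the block added 1 call in THP-1 with HepG2 given 5 uM iMDK and 1 in THP-1 with untreated Huh6, where there were 0. In Huh6 and HepG2 same-numbered libraries did not deviate together (correlations -0.189 to 0.23 and -0.242 to 0.26). The count of genes called changed by more than 1.5 times in few cases, and the cause was not tested. Fitting only the compared groups gave 2 in place of 1 for Huh6 at 0.2 uM PKF118-310. No filter gave 1 in place of 0 in THP-1 with HepG2 given 5 uM iMDK, with untreated Huh6 and with Huh6 given 10 uM iMDK, and DESeq2 gave 1 in place of 0 with untreated Huh6. Subtraction of tumour reads gave 3 in place of 6 with untreated HepG2, with 10 in place of 12 genes tested. Leaving out a library gave 1 to 3 calls with HepG2 given 10 uM iMDK. In THP-1 cultured alone 5 genes reached 0.5 CPM, against 9 over all THP-1 libraries. At these depths, genes of few reads have wide counting intervals, such as 1.08 to 6.64 for CYP3A4 in HepG2 at 5 uM iMDK over vehicle.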
